A study of Mus musculus with 8 samples.

Results

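Transcript levels of 10 genes of monocytes and macrophages were examined in early B-lineage fractions of mouse bone marrow. They were Csf1r, Ly6c2, Ccr2, F13a1, Ms4a6c, Adgre1, C1qa, C1qb, C1qc and Ctss, taken by symbol, and they made up 10 of the 52550 genes listed in every expression file. The study compared wild type (WT) and lactoferrin knockout (Lf-/-) mice, both on the C57BL/6J strain and untreated, at 2 stages of B cell development. Bone marrow was sorted by flow cytometry for pre-pro-B cells (a gate that included AA4.1+, B220+ and CD24-) and for pro-B cells (B220+ CD43+ IgM-), and total RNA was sequenced. Each genotype had 2 pre-pro-B libraries, the knockout had 2 pro-B libraries and WT had 1, and a further pro-B sample of WT was not analysed here. The knockout is of the whole animal, so every cell of the marrow lacks lactoferrin. Library names carry an animal number that differs within a group and recurs at both stages. Ages and any pooling of animals are not given in the sources used here, and p-values measure the spread between these libraries.

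Monocytes leave the marrow in response to chemokines read by CCR2, depend with macrophages on signals through the receptor CSF1R, and carry Ly6C on their surface. Resident macrophages of the marrow take up dying cells and the nuclei expelled by erythroblasts, and are a main source of C1q, the recognition subunit of the classical complement pathway. C1q is built of 3 chains, A, B and C, each encoded by its own gene. Neither cell type belongs to the B lineage. In sorted bulk RNA, fewer monocytes or macrophages among the cells and less of their RNA per cell cannot be told apart.

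The C1q genes lie side by side on the minus strand of mouse chromosome 4 in GRCm38, with C1qb at chr4:136880129-136886187, C1qc at chr4:136889804-136893065 and C1qa at chr4:136895917-136898803, and no other annotated gene overlapped any of them. RefSeq start-site windows of GRCm38.p6, from 250 bases before to 50 bases after a start, were held for 7 of the 10 genes. The windows below are from 2 C1q genes, which passed the unadjusted stage test, and from Ctss, F13a1 and Ly6c2, which did not pass the stage test. Where a gene had several windows, one with the most matches is shown. Capitals mark matches on either strand to GAGGAAGT, letters of the site bound by PU.1, the ETS-family factor that drives myeloid genes. The letters were chosen after the windows had been read, so no test is given.
C1qb (chr4:136886151-136886450, strand -): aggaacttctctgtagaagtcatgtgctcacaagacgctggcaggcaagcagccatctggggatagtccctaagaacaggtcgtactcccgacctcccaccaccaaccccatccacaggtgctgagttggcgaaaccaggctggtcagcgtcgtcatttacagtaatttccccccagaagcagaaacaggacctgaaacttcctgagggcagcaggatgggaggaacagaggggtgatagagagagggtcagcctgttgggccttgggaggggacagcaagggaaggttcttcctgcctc
C1qc (chr4:136892865-136893164, strand -): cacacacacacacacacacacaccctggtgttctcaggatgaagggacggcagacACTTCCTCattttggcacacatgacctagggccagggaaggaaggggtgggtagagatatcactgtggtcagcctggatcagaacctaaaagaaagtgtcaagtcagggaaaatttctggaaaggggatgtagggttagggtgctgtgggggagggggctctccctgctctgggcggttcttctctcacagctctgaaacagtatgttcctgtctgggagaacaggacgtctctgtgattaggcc
Ctss (chr3:95526536-95526835, strand +): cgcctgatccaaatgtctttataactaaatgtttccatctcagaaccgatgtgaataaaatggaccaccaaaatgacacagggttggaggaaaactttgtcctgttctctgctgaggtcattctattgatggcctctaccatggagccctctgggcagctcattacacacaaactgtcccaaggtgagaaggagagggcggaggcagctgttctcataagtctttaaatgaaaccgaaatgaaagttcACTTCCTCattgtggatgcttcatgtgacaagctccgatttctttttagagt
F13a1 (chr13:37049164-37049463, strand -): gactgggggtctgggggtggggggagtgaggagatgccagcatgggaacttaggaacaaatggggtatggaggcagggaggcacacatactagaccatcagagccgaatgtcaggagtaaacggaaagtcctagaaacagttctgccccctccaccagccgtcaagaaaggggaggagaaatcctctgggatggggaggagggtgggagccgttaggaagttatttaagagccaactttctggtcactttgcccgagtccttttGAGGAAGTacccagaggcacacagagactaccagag
Ly6c2 (chr15:75111922-75112221, strand -): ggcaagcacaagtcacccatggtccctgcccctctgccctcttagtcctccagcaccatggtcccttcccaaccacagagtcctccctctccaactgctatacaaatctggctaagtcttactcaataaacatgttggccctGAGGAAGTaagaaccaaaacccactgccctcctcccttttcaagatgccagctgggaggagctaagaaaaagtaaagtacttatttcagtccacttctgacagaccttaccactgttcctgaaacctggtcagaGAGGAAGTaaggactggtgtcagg

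These 8 letters were found in 4 of the 7 genes, C1qc, Ctss, F13a1 and Ly6c2, against 3.69% of the 27025 genes in the table. A gene counted if any of its windows held a match. Ly6c2 held 2 matches in the window shown, and C1qb, Ccr2 and Ms4a6c held none. F13a1 held 1 in the window shown and none in its other window, chr13:37050195-37050494, which spans the annotated gene start. A match of letters is a description and not a measured binding site.

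Values were FPKM, fragment numbers normalised for transcript length and library size, which can be set side by side between genes. Lactoferrin's own transcript, Ltf, read 2143 to 2731 FPKM in the 3 WT libraries and 88.2 to 168 FPKM in the 4 Lf-/- libraries. A list of 18 neutrophil granule genes took 25.4% to 53.1% of each library's summed FPKM. The gate was set on surface protein, and the CD24- pre-pro-B libraries held 292.1 to 471.2 FPKM of the transcript Cd24a. The pro-B libraries, whose gate did not name CD24, held 196.8 to 513.1 FPKM of it. The part of other cells in the Cd24a level was not tested. The summed level of 17 early B-lineage genes was 244.1 to 657.1 FPKM in WT and 1670 to 3695 FPKM in Lf-/- libraries. The library Lf-/- pre-pro-B 2 stood apart, with 12172 genes above 0 against 19477 to 20250 in the others. Read totals were not used here, and steps in the low values put the other 6 libraries at roughly 11000000 to 16000000 fragments.

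All 10 genes were above 0 in every library. Ly6c2 was the most abundant in each, at 562.9 to 1812 FPKM, above 99.3% to 99.8% of the genes detected in the same library. Ctss followed at 60.1 to 519.1 FPKM, and then C1qb at 11.01 to 80.0 FPKM, except that Ms4a6c exceeded C1qb in Lf-/- pro-B 1. Csf1r, F13a1, Ccr2 and Adgre1 were low throughout, with a highest value of 9.83 FPKM, for Csf1r in Lf-/- pre-pro-B 2.

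**Figure D1:**
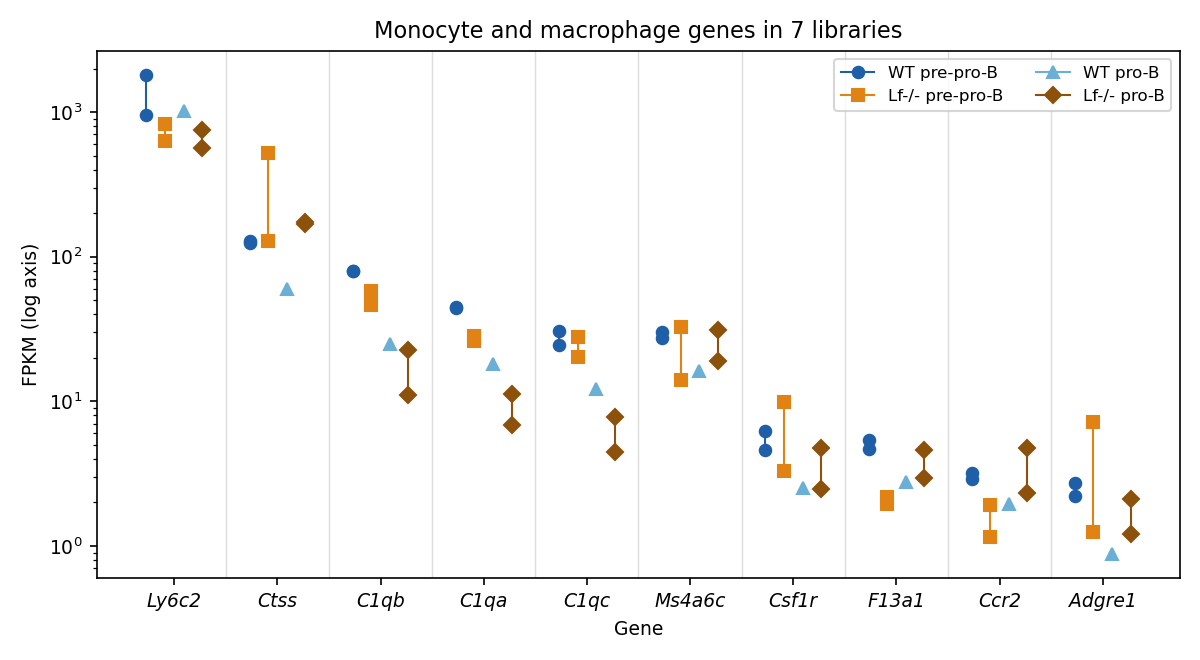
FPKM on a log axis (vertical) of each of the 10 genes (horizontal), with 1 point per library and a line joining libraries of a group: circles WT pre-pro-B, squares Lf-/- pre-pro-B, triangles WT pro-B, diamonds Lf-/- pro-B. C1qa, C1qb and C1qc were lower in all 3 pro-B libraries than in any of the 4 pre-pro-B libraries, and the Lf-/- pre-pro-B points of Ctss were far apart, at 127.9 and 519.1 FPKM.

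The clearest pattern was the lower level of the C1q genes in pro-B cells. C1qb, encoding the B chain, read 79.7 and 80.0 FPKM in WT against 46.5 and 58.1 FPKM in Lf-/- at the pre-pro-B stage, and 25.1 FPKM against 11.01 and 22.8 FPKM at the pro-B stage. C1qa, encoding the A chain, read 44.7 and 44.3 FPKM against 28.1 and 26.1 FPKM, and then 18 FPKM against 6.89 and 11.2 FPKM. C1qc, encoding the C chain, read 30.9 and 24.5 FPKM against 20.2 and 28.0 FPKM, and then 12.3 FPKM against 4.48 and 7.80 FPKM. For each chain every pro-B library lay below every pre-pro-B library, and the WT pro-B library was the highest of the pro-B libraries.

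At the pre-pro-B stage the mean of C1qb was 79.9 ± 0.199 FPKM in WT (SD, n = 2) against 52.3 ± 8.15 FPKM in the knockout (SD, n = 2). Its mean in the knockout was 16.9 ± 8.33 FPKM (SD, n = 2) at the later stage. The pre-pro-B mean of C1qb was 3.19-fold the WT pro-B value, and in Lf-/- the means differed 3.09-fold. For C1qa the folds were 2.47 in WT and 3.01 in Lf-/-, and for C1qc they were 2.26 and 3.92. Where fragment numbers could be approximated, C1qa rested on about 560 in WT pre-pro-B 2 and about 80 in Lf-/- pro-B 1.

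Fitted over all 7 libraries with genotype in the model, the stage difference, pro-B minus pre-pro-B, on the log2(FPKM + 1) scale was -1.64 ± 0.32 for C1qb (standard error, limma, unadjusted p = 0.00067). For C1qa it was -1.42 (95% interval -2.08 to -0.76, unadjusted p = 0.00093), and for C1qc it was -1.54 (-2.30 to -0.79, unadjusted p = 0.0013). All 3 thus passed the unadjusted threshold of 0.05 that the study used, which 2.41% of the 10793 genes tested passed in either direction and 1.16% passed as lower. None passed after Benjamini-Hochberg adjustment over all genes, with limma adjusted p of 0.514 for C1qb, 0.669 for C1qa and 0.788 for C1qc; 0.00927% of genes did. An exact permutation test of stage over the 7 libraries gave two-sided p = 0.0286 for each chain, the smallest it can give.

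Non-overlap in this direction, every pro-B library below every pre-pro-B library, was found for 3 of the 10 genes and for 0.945% of all genes tested. By p-value, C1qb, C1qa and C1qc stood at places 14, 15 and 18 of the 10793 genes. Of the 13 genes ahead of C1qb, 12 were immunoglobulin genes and all 12 were lower in pro-B. The part of antibody-secreting or other cells in the C1q difference was not tested.

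The C1q difference kept its sign and its unadjusted p under 0.05 in every alternative run, including leaving out each library in turn. In the Lf-/- libraries alone, an alternative added after the data were seen, it was -1.52 for C1qa, -1.65 for C1qb and -1.83 for C1qc (limma, unadjusted p = 0.018, 0.017 and 0.0097). With mouse names as a block it was -1.44, -1.64 and -1.65 in the same order. Leaving out Lf-/- pre-pro-B 2 gave -1.42, -1.56 and -1.36.

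None of the 7 other genes passed the stage test. Adgre1, the gene of the macrophage surface receptor F4/80, had a stage difference of -0.78 (limma, unadjusted p = 0.12), and its values were 2.74 and 2.21 FPKM in WT against 1.24 and 7.17 FPKM in Lf-/- at the earlier stage, and 0.882 FPKM against 2.13 and 1.21 FPKM at the later. Csf1r differed by -0.70 and Ctss by -0.78, also short of the threshold (unadjusted p = 0.12 for each). Without Lf-/- pre-pro-B 1 all 3 passed it, at -1.26 for Adgre1, -1.06 for Csf1r and -1.33 for Ctss, but 16.7% of all genes then passed, and the lone Lf-/- pre-pro-B library left was the one that stood apart. Ly6c2 (-0.24), Ms4a6c (-0.20), F13a1 (0.10) and Ccr2 (0.30) had smaller differences with intervals that spanned 0.

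**Figure D2:**
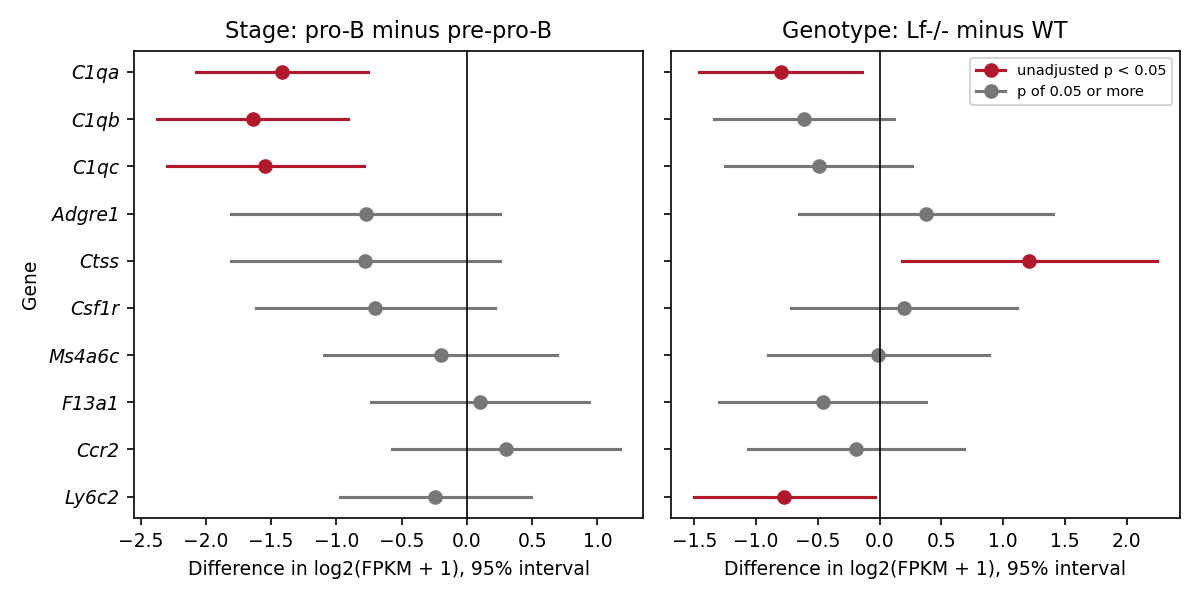
Differences in log2(FPKM + 1) with 95% limma intervals (horizontal) for the 10 genes (vertical), left for stage and right for genotype, with red for unadjusted p under 0.05. The 3 C1q genes lie between -1.64 and -1.42 on the left. On the right the intervals of C1qa and Ly6c2 lie wholly below 0 and that of Ctss lies wholly above it.

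The 3 chains kept their proportions. Within a library, C1qb was 1.39 to 2.23 times C1qa, with a median of 1.78, while C1qa itself ranged from 6.89 to 44.7 FPKM. C1qc was 0.553 to 0.717 times C1qa in 6 libraries and 1.07 times in Lf-/- pre-pro-B 2. Across the 7 libraries the log2 levels of the chains correlated at Pearson r of 0.958 to 0.978, a description over libraries that share their stage and genotype.

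Set against the summed level of the 7 other genes of the same library, C1q was lower at the pro-B stage as well. The summed C1q level was 0.138 and 0.0751 of the summed other genes in WT against 0.121 and 0.0799 in Lf-/- at the pre-pro-B stage, and 0.0503 against 0.0288 and 0.0436 at the pro-B stage. Every pre-pro-B library was above every pro-B library on this ratio of sums, in which Ly6c2 alone made up most of the other genes' 778.1 to 1981 FPKM. With each gene weighted equally, as the mean log2 level of C1q minus that of the other genes, the stages overlapped, at 0.463 to 1.22 in pre-pro-B and -1.39 to 0.478 in pro-B libraries. The overlap lay between Lf-/- pre-pro-B 2 (0.463) and the lone WT pro-B library (0.478), and within each genotype the stages did not overlap. Per 1000 FPKM of the neutrophil granule list, C1q was 0.301 to 0.637 FPKM in pre-pro-B and 0.0879 to 0.144 FPKM in pro-B libraries, again without overlap. The other 7 genes were 2.48 to 7.97 FPKM per 1000 on that measure, and their stages overlapped.

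**Figure D3:**
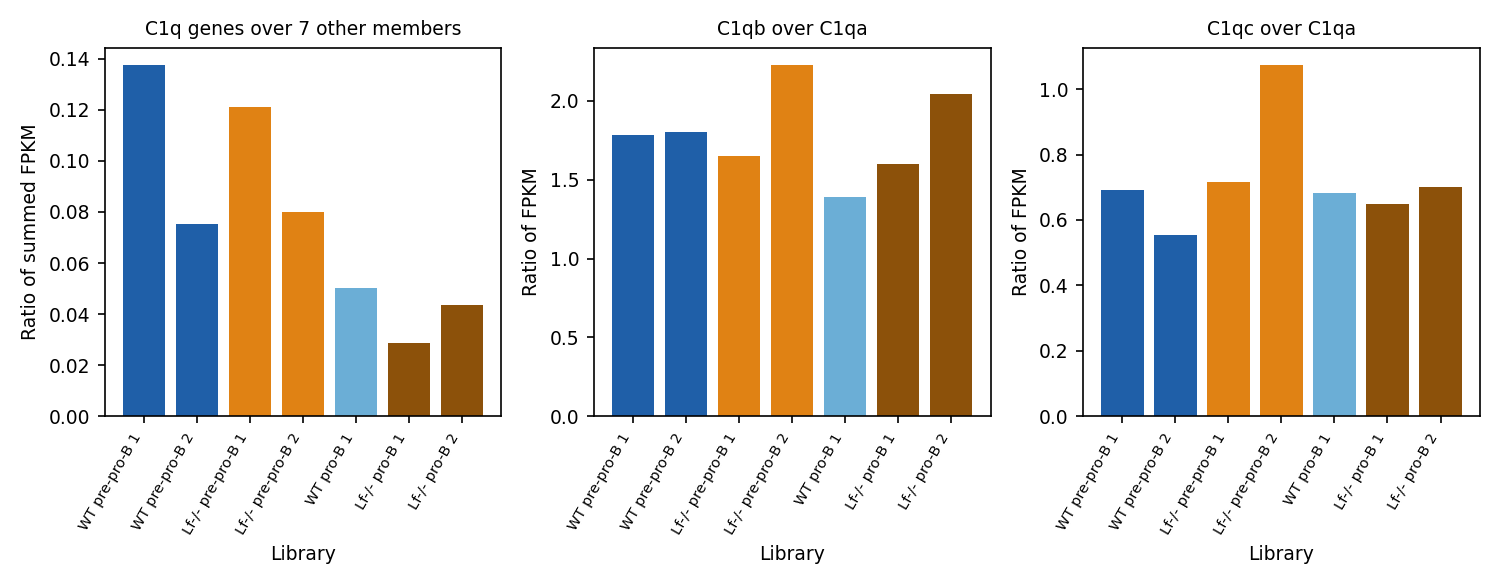
Ratios within each of the 7 libraries (horizontal), as bars from 0: summed FPKM of C1qa, C1qb and C1qc over that of the 7 other genes, C1qb over C1qa, and C1qc over C1qa. The ratio to the other genes, mostly Ly6c2, was 0.0751 or more in pre-pro-B and 0.0503 or less in pro-B libraries. When each gene was weighted equally, the stages separated within each genotype but overlapped across genotypes. C1qb over C1qa stayed between 1.39 and 2.23.

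Other macrophage genes were measured as a list of 22, of which 13 were abundant enough to test. At the stage comparison 11 of the 13 were lower in pro-B, with a median of -0.32 against -0.03 over all genes, but 1 passed the unadjusted threshold and none the adjusted. That gene, named after its value was seen, was Hmox1, which encodes the haem-degrading enzyme haem oxygenase, at -0.87 (limma, unadjusted p = 0.027). All 3 C1q genes lay below this list, whose lowest value was that of Hmox1.

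Between genotypes with stages combined, 5 of the 13 were higher and 8 lower in Lf-/-, with a median of -0.07 against 0.21 over all genes. Of the 13, 4 passed the unadjusted threshold as lower, as did 0.695% of all genes. Cd5l, a secreted macrophage protein, read 8.04 and 4.37 FPKM in WT at the pre-pro-B stage, where Lf-/- read 2.21 FPKM in library 1 and was listed at 0 in library 2. At the pro-B stage it read 2.99 FPKM against 1.57 and 1.28 FPKM. The genotype difference of Cd5l was -1.46 (limma, unadjusted p = 0.015). Axl, a receptor for the uptake of dying cells (-1.28), Spic, a factor of iron-recycling macrophages (-0.87), and Vcam1, an adhesion receptor of marrow macrophages and stroma (-0.70), also passed. Cd5l, Axl and Spic were each listed at 0 in Lf-/- pre-pro-B 2, where 9 of the 22 genes were listed at 0.

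**Figure D4:**
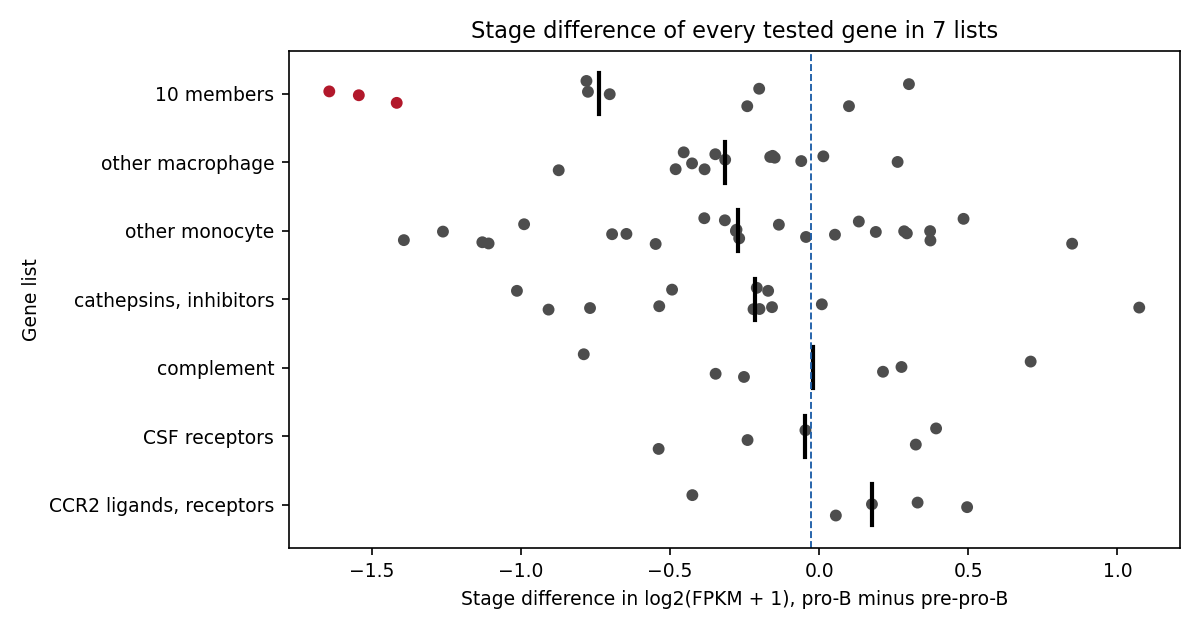
Stage difference in log2(FPKM + 1), pro-B minus pre-pro-B (horizontal), of every tested gene in the 10 genes studied and in 6 further lists (vertical), with 1 point per gene, a bar at the list's median and a dashed line at the median of all genes, -0.03. The C1q genes, in red, lie at -1.64 to -1.42, while the other macrophage list reached down to -0.87.

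The genes most like C1q over the 7 libraries, by Pearson correlation of log2(FPKM + 1) with the mean scaled C1q level, were Tuba4a (0.929), Tspan2 (0.924), Ticrr (0.908), Hist1h1d (0.907) and Ighv1-81 (0.905), among 10793 genes. Those most like the mean of the 7 other genes were Pid1 (0.980), Gm12571 (0.975), Mir8114 (0.970), S100a4 (0.964) and Ctdspl2 (0.964). With 7 libraries and this many genes, such values describe rank only. Within the macrophage list, Fcna, the gene of ficolin A, and Vcam1 followed the C1q level at 0.874 and 0.849, while Trem2, a lipid-sensing receptor, followed the other genes at 0.916 and C1q at 0.315.

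Of the rest of the complement pathway, 6 of 14 genes were abundant enough to test and none passed the stage test. The proteases that join C1q in the C1 complex were at or near the floor: C1ra did not exceed 0.748 FPKM and C1s1 did not exceed 0.0161 FPKM. C3, the central component, was 8.71 to 23.9 FPKM and differed between genotypes by -0.64 (limma, unadjusted p = 0.091). Cd55, which protects cells from complement, was higher in Lf-/- with stages combined, by 1.74 (unadjusted p = 0.0032), and so was Cd93, by 0.94 (unadjusted p = 0.043), which encodes the AA4.1 antigen of the pre-pro-B gate. C5ar1, the receptor for C5a, differed by 1.16 (unadjusted p = 0.17).

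Between genotypes, C1q also read lower in Lf-/-, less evenly. With stages combined, the Lf-/- minus WT difference was -0.80 for C1qa (95% interval -1.46 to -0.14, limma unadjusted p = 0.023, adjusted p = 0.607), -0.62 for C1qb (unadjusted p = 0.088) and -0.50 for C1qc (unadjusted p = 0.17). The call for C1qa rested on few libraries: the unadjusted p was 0.058 without WT pre-pro-B 1, 0.065 without WT pre-pro-B 2, 0.11 without WT pro-B 1 and 0.069 without Lf-/- pro-B 1, with differences of -0.82, -0.83, -0.70 and -0.68. Over all genes the median difference was 0.21, and median-ratio scaling moved it to -0.05. Under that scaling all 3 chains passed, at -1.12, -0.94 and -0.81 for C1qa, C1qb and C1qc (unadjusted p = 0.0058, 0.012 and 0.036).

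In that comparison 3 of the 10 genes passed the unadjusted threshold, against 7.17% of all genes, and none passed the adjusted one, against 0.185%. They were C1qa and Ly6c2, which passed as lower, as did 0.695% of all genes, and Ctss, which passed as higher, as did 6.48%. A test within pre-pro-B libraries alone called none of the 10 (2.92% of 9720 genes unadjusted and 0% adjusted), and neither did the test within pro-B libraries (4.33% and 0% of 10793 genes). In pre-pro-B cells both Lf-/- libraries lay below both WT libraries for 5 of the 10 genes, Ly6c2, Ccr2, F13a1, C1qa and C1qb (17.7% of all genes), and above for Ctss (15.5%). Against the lone WT pro-B library, both Lf-/- libraries were below for Ly6c2 and the 3 C1q genes (6.9%) and above for Ccr2, F13a1, Ms4a6c, Adgre1 and Ctss (75.3%).

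Single libraries decided several of these calls, and the share of all genes that passed moved with them. Without Lf-/- pre-pro-B 1, which leaves the library that stood apart as the lone Lf-/- one at that stage, 5 of the 10 genes passed the unadjusted pre-pro-B test, as did 48.3% of all genes. Without Lf-/- pre-pro-B 2, F13a1 (-0.94) and Ms4a6c (-0.97) passed it, against 8.07% of all genes. In the pro-B test, C1qa (-0.96, limma, unadjusted p = 0.076) and Ctss (1.49, limma, unadjusted p = 0.094) passed at those same values without either Lf-/- pre-pro-B library, where 21.9% and 21.8% of all genes passed without library 1 and library 2. Ctss also passed with the 3 pro-B libraries alone, where 19.8% did. All 3 C1q genes passed the pro-B test under median-ratio scaling, at -1.55, -1.23 and -1.51 for C1qa, C1qb and C1qc, against 2.46% of all genes. With stages combined, Adgre1 passed without Lf-/- pre-pro-B 1 (0.86, with 28.7% of all genes), F13a1 without WT pro-B 1 (-0.99, with 4.93%) and C1qb without Lf-/- pro-B 2 (-0.78, with 6.01%).

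Ly6c2, the gene of the Ly6C antigen of inflammatory monocytes, read 956.5 and 1812 FPKM in WT against 631.5 and 832.3 FPKM in Lf-/- at the pre-pro-B stage, and 1015 FPKM against 562.9 and 756.2 FPKM at the pro-B stage. All 4 Lf-/- libraries lay below all 3 WT libraries, as did 1.13% of the genes tested. The exact two-sided permutation test of genotype gave p = 0.0286, the smallest it can give, against 0.171 for C1qa and 0.0571 for Ctss. The difference of Ly6c2 was -0.77 (95% interval -1.504 to -0.037, limma unadjusted p = 0.041, adjusted p = 0.682). It missed the threshold without WT pre-pro-B 2 (-0.52), without Lf-/- pre-pro-B 1 (-0.65), without WT pro-B 1 (-0.86), without Lf-/- pro-B 1 (-0.71) and with no filter on low genes (limma, unadjusted p = 0.051).

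Ly6c2 has a near copy, Ly6c1, and 32.6% of the 50-base words of its transcript also occur there, so reads may have been shared between them. Ly6c1 was far lower, at 17.3 to 46.3 FPKM, with a genotype difference of -0.77 (unadjusted p = 0.040), the same as that of Ly6c2. The ratio of Ly6c2 to Ly6c1 lay between 26.0 and 41.8 in all libraries. Ly6c2 was 84.6 to 400.8 times Csf1r, so the Ly6C transcript and the receptor transcript of the same lineage were not held in a fixed proportion.

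Of the 18 neutrophil granule genes, 14 were lower in Lf-/- with stages combined, as were 33.2% of all genes. Of these, 5 passed the unadjusted threshold, against 0.695% of all genes as lower, and 1 of the 5 was Ltf, the gene knocked out. The list's median was -0.50 against 0.21 over all genes. The part of those cells in the Ly6c2 difference was not tested.

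Ctss encodes cathepsin S, a lysosomal protease that trims the invariant chain of MHC class II. With stages combined, Adgre1 (0.38) and Csf1r (0.20) also had positive differences, Lf-/- minus WT. Only Ctss passed the unadjusted threshold in that direction. Pre-pro-B libraries read 127.9 and 124.8 FPKM in WT against 127.9 and 519.1 FPKM in Lf-/-, and pro-B libraries read 60.1 FPKM against 167.7 and 173.7 FPKM. Every Lf-/- library was at or above every WT library, as for 9.87% of all genes tested, but WT pre-pro-B 1 and Lf-/- pre-pro-B 1 were level, and the high value of Lf-/- pre-pro-B 2 came from the library that stood apart. The difference was 1.21 (95% interval 0.18 to 2.24, limma unadjusted p = 0.026, adjusted p = 0.628), and without Lf-/- pre-pro-B 2 it was 0.76 (unadjusted p = 0.086). It also missed the threshold without WT pro-B 1 (1.02), Lf-/- pro-B 1 (1.19) or Lf-/- pro-B 2 (1.17), and under median-ratio scaling it was 0.88 (limma, unadjusted p = 0.037).

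None of the 12 other cathepsins and inhibitors passed the genotype test, although 10 of the 12 were higher in Lf-/-, with a median of 0.39 against 0.21 over all genes. Ctsa differed by 0.75, Ctsz by 0.73 and Lgmn, the legumain gene, by 0.66, with unadjusted p of 0.11, 0.089 and 0.13. Ctsk, the cathepsin of osteoclasts, read 21.9 FPKM in WT pre-pro-B 1 and at most 1.01 FPKM elsewhere. B-lineage and dendritic cells also make Ctss. The summed level of 8 plasmacytoid dendritic cell genes was 227.4 to 511.6 FPKM in WT and 1175 to 3308 FPKM in Lf-/- libraries, but most of it was Ly6d, which B-lineage precursors also express, at 133.7 to 447.4 FPKM in WT and 898.7 to 2872 FPKM in Lf-/-. The list's other genes were mixed in Lf-/- pre-pro-B 1. There Siglech (1.98 FPKM), Ccr9 (0.160 FPKM), Irf7 (1.497 FPKM) and Klk1 (4.81 FPKM) were lower than in any WT library. Bst2 (25.8 FPKM) and Tcf4 (0.939 FPKM) were higher than in any, and Cox6a2 (33.3 FPKM) lay among the WT values. With stages combined, 6 of the 7 tested genes of the list were higher in Lf-/-. Of these, 4 passed the unadjusted threshold, which 6.48% of all genes passed as higher. The part of these cells in the Ctss difference was not tested.

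Csf1r and its axis showed no genotype difference past the threshold. Csf1r, the receptor for CSF1 and IL-34, read 4.63 and 6.20 FPKM in WT against 3.28 and 9.83 FPKM in Lf-/- at the earlier stage, and 2.53 FPKM against 4.79 and 2.47 FPKM at the later. Genotypes overlapped at both stages, and the difference of 0.20 (95% interval -0.72 to 1.11) turned to -0.08 under median-ratio scaling. Its ligands were near the floor, with Il34 listed at 0 in every library and Csf1 at most 1.64 FPKM. Among the related receptors, Flt3 differed by 1.21 (unadjusted p = 0.11), with 38.3 FPKM in Lf-/- pre-pro-B 2 and 2.69 to 7.47 FPKM elsewhere.

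Ccr2 and F13a1 split by stage. Ccr2, the chemokine receptor that releases monocytes from marrow, read 2.89 and 3.20 FPKM in WT against 1.91 and 1.16 FPKM in Lf-/- at the pre-pro-B stage, and 1.96 FPKM against 4.73 and 2.33 FPKM at the pro-B stage. F13a1, the A subunit of coagulation factor XIII, made by monocytes and megakaryocytes, read 4.71 and 5.42 FPKM against 2.17 and 1.94 FPKM, and then 2.75 FPKM against 4.62 and 2.96 FPKM. For both, each Lf-/- library was below WT at the pre-pro-B stage, as for 17.7% of all genes, and above the lone WT library at the pro-B stage, as for 75.3%.

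The test of that difference between stages missed the threshold for all 10 genes (2.74% of genes passed unadjusted and 0% adjusted). It was 1.32 for F13a1 (limma, unadjusted p = 0.072) and 1.25 for Ccr2 (unadjusted p = 0.11), against a median over all genes of 0.45. For F13a1 it passed with no filter on low genes and with at least 1 FPKM in every library, at the same 1.32 (limma, unadjusted p = 0.033 and 0.037). The F13a1 genotype difference within pre-pro-B was -0.99 (unadjusted p = 0.071) and passed when all 7 libraries shared the fit (unadjusted p = 0.040), with at least 1 FPKM in every library, under median-ratio scaling (-1.08) and under quantile normalization (-1.11). Under median-ratio scaling, the Lf-/- and WT pro-B values of both genes overlapped. The difference between stages passed for F13a1 (1.37) and Ccr2 (1.47) without Lf-/- pre-pro-B 1, where 27.6% of all genes passed, and for F13a1 (1.27), Ms4a6c (1.53) and Ctss (1.47) without Lf-/- pre-pro-B 2, where 15.5% did. The 8 platelet and megakaryocyte genes summed to 52.8 to 109.2 FPKM in WT and 20.5 to 51.5 FPKM in Lf-/- libraries, and lay below WT at both stages, unlike F13a1; their part in the F13a1 values was not tested.

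CCR2's ligands and kin were tested for 5 of 7 genes. Ccl7, a CCR2 ligand, was lower in Lf-/- by -1.30 (unadjusted p = 0.029), but it read 5.15 and 0.959 FPKM in WT pre-pro-B and was listed at 0 in 2 Lf-/- libraries. Ccl2, the main ligand, differed by -0.17 with 6.80 to 25.1 FPKM. Ccrl2, an atypical receptor that binds chemerin, was higher in Lf-/- by 1.27 (unadjusted p = 0.014), at 11.9 to 39.4 FPKM against 6.76 to 13.4 FPKM.

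Ms4a6c, a membrane protein of the MS4A family abundant in monocytes, read 30.0 and 27.3 FPKM in WT against 14.1 and 32.6 FPKM in Lf-/- at the earlier stage, and 16.3 FPKM against 31.3 and 19.2 FPKM at the later. Genotypes overlapped at the earlier stage. At the later stage each Lf-/- library lay above the lone WT library, as for 75.3% of all genes. Under median-ratio scaling the genotypes instead overlapped at the later stage, and at the earlier stage each Lf-/- library lay below WT. On the deposited values the genotype difference of Ms4a6c was -0.01 and its stage difference -0.20. The transcript shares 6.08% of its 50-base words with Ms4a6b, which differed between genotypes by 0.85 (limma, unadjusted p = 0.20).

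Of 26 further monocyte genes, 24 were tested. With stages combined, 19 were higher and 5 lower in Lf-/-, and 3 passed the unadjusted threshold, of all genes 6.48% as higher and 0.695% as lower. They were Irf8 (1.20, unadjusted p = 0.0086) and Nr4a1 (0.98, unadjusted p = 0.037) as higher in Lf-/- and Ly6c1 as lower. Irf8, a factor of monocyte, dendritic and B cell precursors, read 16.1 to 18.8 FPKM in WT and 23.7 to 57.6 FPKM in Lf-/- libraries, and Nr4a1 is a factor of non-classical monocytes. At the stage comparison Ms4a7 was lower in pro-B (-1.26, unadjusted p = 0.024) and Cebpb higher (0.85, unadjusted p = 0.031), both named after their values were seen. No gene of this list passed the adjusted threshold in any comparison.

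The genotype effect on C1qb differed between stages by -0.01, and the Lf-/- to WT ratio of means was 0.655 at the earlier and 0.675 at the later stage. For C1qa the ratios were 0.609 and 0.501, and for C1qc 0.870 and 0.501. Ordered by level, C1qb and C1qa were highest in WT and next in the knockout at the pre-pro-B stage, then lower in WT and lowest in the knockout at the pro-B stage, with no overlap between neighbours. The WT pro-B group is 1 library. Of all genes, 17.7% had Lf-/- below WT at the earlier stage, 6.9% at the later, and 0.945% every pro-B below every pre-pro-B library. The share with the whole order was not computed. For C1qc the WT and Lf-/- pre-pro-B values overlapped.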

How the data were processed

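Total RNA from sorted bone marrow fractions was sequenced and 7 tables of FPKM were deposited by the authors, with 52550 genes each. The unit is inferred from the values and headers. The submitters' processing notes name TopHat, Cufflinks, HTSeq, DESeq and GRCm38, without roles. The FPKM were used as deposited, without read counts, so depth is known only roughly and no counting interval is given. Genes reaching 1 FPKM in 2 or more fitted libraries were tested on log2(FPKM + 1) with limma 3.58.1 (R 4.3.3, trend, Benjamini-Hochberg over all genes tested) for genotype within stage, genotype and stage in additive fits, and their interaction. The pro-B and interaction tests came from a 4-group fit in which the lone WT pro-B library is assumed to vary like the others. A fold on this scale understates the change of low genes. The scripts were tested on simulated data. Groups came from the labels, which give 2 libraries per group where the study's methods give 3 mice. Deviations of same-numbered Lf-/- libraries correlated at -0.013 between the stages. The other correlations, 0.039 and 0.053, joined WT with Lf-/- libraries, which cannot be the same animal. Shared animals across stages were not otherwise checked. Members and lists were chosen with earlier results of these data known. Named genes were the members, Ltf, up to 4 tested genes per list with the largest genotype difference, the 5 most correlated with each profile, markers of the sort, and Ly6c1. Positions and transcripts came from GENCODE M21 and promoters from RefSeq. One marker of the sort is not reported here.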

Additional observations from a re-analysis of the deposited data

Results flagged for a closer look

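Ccr2 and F13a1 were listed for a closer look because every Lf-/- library lay on one side of WT in pre-pro-B cells and on the other side in pro-B cells, being lower in pre-pro-B, as for 17.7% of all genes, and higher in pro-B, as for 75.3%. The difference of the genotype effect between stages, pro-B minus pre-pro-B, was 1.25 for Ccr2 and 1.32 for F13a1 on the log2(FPKM + 1) scale, and neither passed the limma test (unadjusted p = 0.11 and 0.072), though F13a1 passed with no filter and with at least 1 FPKM in every library (limma, unadjusted p = 0.033 and 0.037). The pro-B side rests on 1 WT library, and with median-ratio scaling the pro-B values of both genes overlapped between genotypes. No group had the 4 libraries needed to look for a library far from the others.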

How the results depend on the processing

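The lower C1q level in pro-B cells kept its direction and its unadjusted p under 0.05 for all 3 genes in every alternative, and no member passed the adjusted threshold in the comparison of stages. Of 686 recomputed values of single members, 582 kept direction and side of the unadjusted threshold, 43 came to pass it, 13 no longer passed it and 48 changed sign without passing. Counts over all genes moved more; where no construction accounts for it the cause was not tested. Genes with unadjusted p under 0.05 in pre-pro-B (284) became 649 with no filter and 528 with all 7 libraries in one fit. In pro-B (467) they became 265 with median-ratio scaling, 307 with quantile normalization, 1979 with no filter and 1914 with the 3 pro-B libraries alone. For stage (260) they became 626 with no filter and 156 with at least 1 FPKM in every library. For the interaction (296) they became 132, 170, 195, 1608 and 152 with median-ratio scaling, quantile normalization, a pseudocount of 0.1, no filter and 1 FPKM in every library.

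Adjusted calls in pro-B (0) became 256 and in the interaction (0) 122 with no filter. For genotype with stages combined (20) they became 7, 10, 12, 9, 0 and 63 with median-ratio scaling, quantile normalization, rescaling without the neutrophil granule list, a pseudocount of 0.1, no filter and 1 FPKM in every library. For stage (1) they became 0 with median-ratio scaling, quantile normalization, a pseudocount of 0.1, no filter and the 4 Lf-/- libraries alone, and 6 with 1 FPKM in every library.

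The median C1q genotype difference was -1.51 in pro-B and -0.94 with stages combined under median-ratio scaling, and -1.57 in pro-B under quantile normalization. The median C1q interaction (-0.26) was -0.72 and -0.76 under these scalings.

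Libraries of different genotype share only a replicate number, and whether a number recurring at both stages marks the same animal is not stated. With the replicate block, unadjusted calls were 532 in pre-pro-B and 456 for the interaction, and adjusted calls 65 in pre-pro-B and 0 for stage. With mouse name as the block, stage calls were 403 unadjusted and 8 adjusted. No member's call changed with a block, adjusted or not. Without Lf-/- pre-pro-B 1, Ctss (2.03), Adgre1 (1.24) and F13a1 (-1.04) passed the adjusted threshold in pre-pro-B, as did 36.5% of all genes, and Ctss (1.76) with stages combined, as did 0.558%.

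Leaving out 1 library at a time, with a lone library assumed to vary like the others, unadjusted calls ranged from 140 to 4416 in pre-pro-B, 137 to 2318 in pro-B, 425 to 3033 for genotype combined, 139 to 1763 for stage and 90 to 2920 for the interaction. Adjusted calls ranged from 0 to 3338, 0 to 1, 0 to 123, 0 to 36 and 0 to 561. The median C1q difference in pro-B ranged from -1.27 to -0.59, the median C1q interaction from -0.573 to 0.051, and that of the 7 other members from 0.024 to 1.106. FPKM without counts limit what can be said of genes near 1 FPKM, Adgre1 and Ccr2 among them.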
